A study of Mus musculus with 18 samples.

Results

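The genes described here are Ms4a4a, Ms4a4c, Ms4a6b, Ms4a6c, Ms4a6d and Ms4a7, 6 of the 19938 genes with a probe set annotated to a single symbol. They were chosen by the log2 levels on these same arrays, as Ms4a genes high in monocytes, so their difference between monocytes and neutrophils is given as a description without a test. Each has 1 probe set: 10461587 (Ms4a4a), 10461594 (Ms4a4c), 10461622 (Ms4a6b), 10461614 (Ms4a6c), 10466210 (Ms4a6d) and 10466200 (Ms4a7). Expression was measured on 18 microarrays of 2 cell types sorted from mouse bone marrow, Ly-6C(hi) monocytes and neutrophils, with 9 arrays each. The mice labelled CKO carried Zeb2(fl/fl);Mx1-Cre(tg), that is, floxed alleles of the transcription factor gene Zeb2 together with a Cre recombinase under an interferon-inducible promoter. They had been given poly(I:C), a synthetic double-stranded RNA that raises interferon, and make up 4 arrays per cell type. The controls carried Zeb2(fl/fl) without Cre, with 4 poly(I:C) arrays and 1 array from an untreated mouse per cell type. All mice were C57BL/6, and poly(I:C) was injected into the peritoneum at 150 µg, 2 times in 48 h, with marrow taken 3 weeks afterwards. Since the controls lack Cre and Mx1-Cre acts in many cells, effects of Cre, of Zeb2 loss in these cells and of Zeb2 loss elsewhere cannot be told apart. Nothing in the labels says that each array stands for its own mouse, so p-values speak for the spread among these samples alone, part of which may be technical.

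MS4A proteins are tetraspan membrane proteins, unrelated in sequence to the classical tetraspanins, that sit beside immune receptors and affect their signalling and trafficking. The best known human members are MS4A1, the B cell antigen CD20, and MS4A2, the beta chain of the high-affinity IgE receptor of mast cells and basophils. The genes lie next to each other in the genome, and several copies in the mouse, such as Ms4a6b, Ms4a6c and Ms4a6d, arose by local duplication. Monocytes and macrophages express a subset of the family. By the RefSeq gene order, 21 Ms4a genes lie on mouse chromosome 19, and 19 of them are on the array table. The 6 members lie together near one end of that row, with only the T cell gene Ms4a4b and Ms4a4d between them.

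RefSeq start regions of 300 bases (GRCm38.p6, 250 bases before to 50 bases after the annotated start) were found for 5 of the 6 members. From them and from Ms4a4b, 2 pairs are shown because they put like sequence beside like and unlike readouts. The first pair is the neighbours Ms4a6b (chr19:11518309-11518608, plus strand) and Ms4a6c (chr19:11469118-11469417, plus strand). Capitals mark their longest identical run, 48 bases, which begins at base -118 of Ms4a6b and base -49 of Ms4a6c.
Ms4a6b: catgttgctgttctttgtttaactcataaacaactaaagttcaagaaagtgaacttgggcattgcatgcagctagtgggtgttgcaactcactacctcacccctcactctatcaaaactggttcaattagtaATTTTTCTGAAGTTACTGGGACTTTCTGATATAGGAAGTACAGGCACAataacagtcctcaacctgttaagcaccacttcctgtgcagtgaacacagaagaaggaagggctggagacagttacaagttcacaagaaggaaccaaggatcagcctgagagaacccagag
Ms4a6c: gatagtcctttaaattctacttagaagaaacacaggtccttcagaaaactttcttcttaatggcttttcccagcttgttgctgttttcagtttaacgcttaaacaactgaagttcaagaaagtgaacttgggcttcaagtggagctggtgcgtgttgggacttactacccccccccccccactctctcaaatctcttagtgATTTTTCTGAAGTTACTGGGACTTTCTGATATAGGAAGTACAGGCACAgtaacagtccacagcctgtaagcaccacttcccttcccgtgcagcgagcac
The run holds the letters AGGAAGT, a form of the site of the myeloid factor PU.1 and other ETS factors, at base -86 in Ms4a6b and at -17 in Ms4a6c. Ms4a6b has a further match at -43 on the other strand. Searched on both strands, AGGAAGT was in none of the other members' windows and in 9.4% of all 32851 RefSeq windows. Aligned over their whole length the windows of Ms4a6b and Ms4a6c were identical at 52.3% of columns (197 of 377), against a median of 50% over 135 pairs of Ms4a windows. Columns with a gap count as not identical here. Since the shared run lies at different distances from the 2 starts, many columns hold a gap, and the share understates how alike the paired bases are.

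The second pair is the member Ms4a4c (chr19:11407411-11407710, plus strand) and its neighbour Ms4a4b (chr19:11443308-11443607, plus strand), which is no member. Capitals again mark the longest identical run, 20 bases, which begins at -38 in Ms4a4c and at -41 in Ms4a4b.
Ms4a4c: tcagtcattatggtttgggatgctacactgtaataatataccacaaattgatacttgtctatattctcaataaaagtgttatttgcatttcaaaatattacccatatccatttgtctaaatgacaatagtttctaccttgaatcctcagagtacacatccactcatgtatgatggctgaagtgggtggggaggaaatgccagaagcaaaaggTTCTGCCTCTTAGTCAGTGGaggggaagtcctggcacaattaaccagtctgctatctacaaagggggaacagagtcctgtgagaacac
Ms4a4b: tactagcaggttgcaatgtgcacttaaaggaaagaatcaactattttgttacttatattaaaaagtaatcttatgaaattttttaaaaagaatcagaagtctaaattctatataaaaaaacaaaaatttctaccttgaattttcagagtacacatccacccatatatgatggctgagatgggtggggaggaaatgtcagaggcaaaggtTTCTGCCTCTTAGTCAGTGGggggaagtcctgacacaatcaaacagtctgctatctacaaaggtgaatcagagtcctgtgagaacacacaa
By the same count, gaps included, these 2 windows were identical at 73.8% of aligned columns (237 of 321), the highest of the 135 pairs. The E-box CACCTG, a core of sites bound by Zeb factors, was in no member's window and in 20.2% of all windows. The core of interferon response elements (GAAA, any 2 bases, GAAA) was in no member's window and in 3.4% of all, and TTNNGCAA, a C/EBP core, was in none and in 10.8%. Both strands were searched for each motif, and the matches describe letters only.

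Values are log2 intensities, and the 40th percentile of an array, used here as a floor for low signals, lay between 4.28 and 4.50. Array medians were 4.81 to 4.92, and precision is limited by the 4 arrays of a group. Zeb2 itself (probe set 10482448) read 9.75, 9.84, 9.46 and 8.74 in the 4 CKO-labelled monocyte arrays and averaged 9.92 in control monocytes, a change of -0.48 ± 0.24 (SE, limma adjusted p = 0.272). In neutrophils it averaged 7.73 in CKO-labelled arrays and 7.24 in controls, against the direction of the label, so groups are called by their label. The probe set covers the whole transcript and the deleted part is not given, so its level does not check the deletion. The 9 measured markers of Ly-6C(hi) monocytes were all above the floor on all 9 monocyte arrays, although Ly6c1 and Ly6c2 themselves were not tested, and all 13 neutrophil markers were above it on all 9 neutrophil arrays. Lying above the floor does not tell the cell types apart, since 6 to 8 of the 9 monocyte markers did so on neutrophil arrays. So did all 13 neutrophil markers on CKO-labelled monocyte arrays and 11 to 13 on control monocyte arrays. The mean of those 13 neutrophil genes was 9.94 to 10.73 in CKO-labelled monocytes, against 7.11 to 8.52 in control monocytes and 12.02 to 12.06 in control neutrophils. The bulk arrays cannot tell fewer cells of a type from less RNA per cell. The deviations of arrays from their group means split them into 2 sets that ran across cell types and genotypes, named A (arrays numbered 1 and 2) and B (CKO 3 and 4, control 4 and 5).

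In control marrow, 5 of the 6 genes were far higher in monocytes than in neutrophils, and Ms4a7 was the exception. None of the 54 neutrophil values of the members was above its array's floor, so only a lower bound of each difference can be given, with the floor in place of the neutrophil value. Control monocytes were at least 84.1-fold higher for Ms4a6c, 70.4-fold for Ms4a6b, 45.8-fold for Ms4a4c, 19.7-fold for Ms4a4a and 7.36-fold for Ms4a6d. For Ms4a7 the bound was 1.20-fold, with 3 of 4 control monocyte arrays above the floor. Across all genes, control monocytes lay above control neutrophils without overlap in 28.6% of those tested, and since this contrast chose the genes nothing is read from that. Of the genes not chosen, Ms4a8a, above the floor on all control neutrophil arrays, was 16.3-fold higher in control monocytes, and for Ms4a4b the bound was 2.0-fold. In CKO-labelled mice, where the same lack of overlap held for 25.2% of all genes, monocytes were at least 54.3-fold higher for Ms4a6c, 41.5-fold for Ms4a6b, 25.8-fold for Ms4a4c, 6.67-fold for Ms4a4a and 3.58-fold for Ms4a6d. Ms4a7 averaged 4.28 in CKO-labelled monocytes, under the floor of the neutrophil arrays, so no fold is given.

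**Figure D1:**
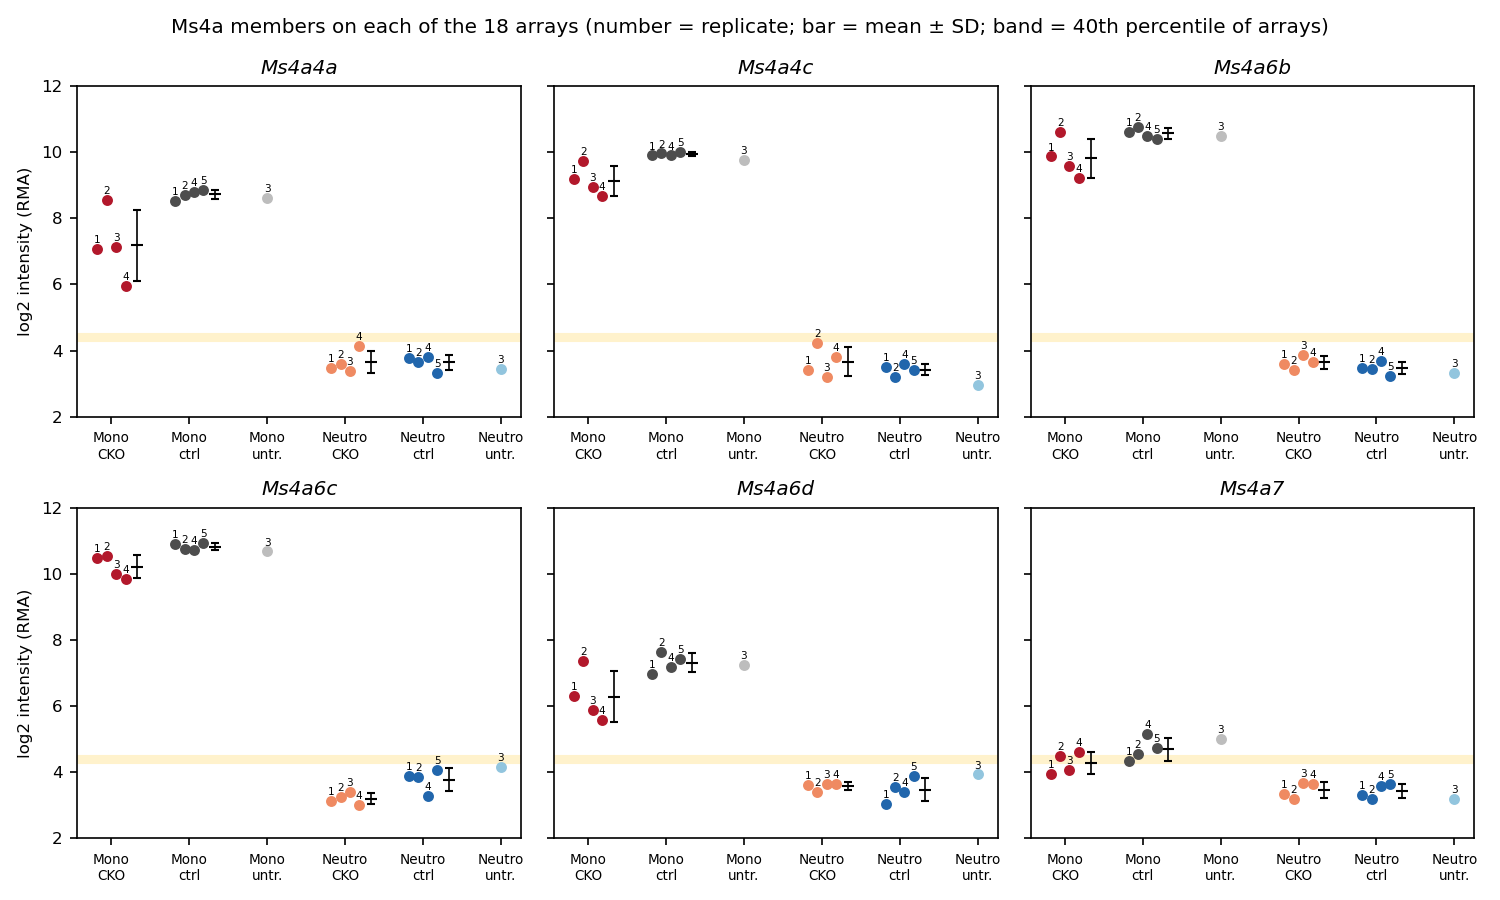
Log2 intensity (y axis) of each member on each of the 18 arrays, by cell type and group (x axis: CKO-labelled, poly(I:C) control and untreated control monocytes, then neutrophils); small figures are array numbers, bars are mean ± SD of 4 arrays and the band is the range of the arrays' 40th percentiles, 4.28 to 4.50. Neutrophil points lie below the band for every member, and most CKO-labelled monocyte points lie below the tight control points, with array 2 nearest to them for every member but Ms4a7.

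In CKO-labelled monocytes 5 of the 6 members fell, by 1.53-fold (Ms4a6c) to 2.91-fold (Ms4a4a), and Ms4a7 did not pass the test. With the replicate number as a block, 3 of the 6 passed: Ms4a4c and Ms4a6d lost their calls, at limma adjusted p of 0.0649 and 0.063. That block pairs only the CKO-labelled and poly(I:C) control arrays numbered 1, 2 and 4. CKO-labelled array 3 and control array 5 have no partner in this contrast. Among all 13387 genes tested, 2.44% fell and 5.11% rose without the block (limma, Benjamini-Hochberg adjusted p under 0.05), and 1.98% fell with it. The spread in these fits is shared with the neutrophil arrays, where the members lay below the floor. With only the compared monocyte arrays fitted, Ms4a4c alone passed (limma adjusted p = 0.0405), and 0.769% of all genes were called lower. Limma adjusted p was then 0.0671 for Ms4a4a, 0.121 for Ms4a6b, 0.0526 for Ms4a6c and 0.116 for Ms4a6d. The median change of the 6 members was -0.776, against -0.034 over all genes tested. All 6 changes were below 0, as were 57.4% of the changes of all genes. The control monocytes in this contrast also entered the choice of the genes, since a gene high on these arrays was more likely to be picked.

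Ms4a4a, whose protein associates with the fungal receptor Dectin-1 in macrophages, had the largest change. It read 7.08, 8.56, 7.13 and 5.96 in CKO-labelled monocytes 1 to 4, against 8.53, 8.70, 8.81 and 8.86 in control monocytes 1, 2, 4 and 5. The control arrays lay close together, whereas CKO-labelled array 2 sat inside their range and the other 3 lay well below it. The means were 7.18 ± 1.07 and 8.72 ± 0.15 (SD, n = 4 each), a change of -1.54 ± 0.34 (SE, limma adjusted p = 0.00847). With only the compared monocyte arrays fitted the SE was 0.41 and the limma adjusted p 0.0671. Ms4a4c, a gene of mouse monocytes that interferon can induce, read 9.18, 9.73, 8.96 and 8.67 in CKO-labelled monocytes, against 9.90, 9.96, 9.90 and 10.02 in control monocytes. All 4 CKO-labelled arrays were below all 4 controls. The means were 9.14 ± 0.45 and 9.94 ± 0.06 (SD, n = 4 each), a change of -0.81 ± 0.21 (SE, limma adjusted p = 0.0232, and 0.0649 with the replicate block).

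The Ms4a6 genes fell as well. Ms4a6b read 9.87, 10.61, 9.57 and 9.23 in CKO-labelled monocytes, against 10.61, 10.76, 10.48 and 10.41 in control monocytes. CKO-labelled array 2 lay inside the control range and the other 3 below it, for a change of -0.74 ± 0.21 (SE, limma adjusted p = 0.0364). Ms4a6c read 10.46, 10.54, 9.98 and 9.85 in CKO-labelled monocytes, against 10.90, 10.75, 10.71 and 10.92 in control monocytes. Its groups did not overlap, and its change was -0.62 ± 0.17 (SE, limma adjusted p = 0.0377), the smallest of the 5. Ms4a6d, which in mouse macrophages is part of a complex with the complement receptor VSIG4, read 6.30, 7.36, 5.89 and 5.59 in CKO-labelled monocytes, against 6.98, 7.63, 7.18 and 7.43 in control monocytes. Array 2 again lay among the controls, and the change was -1.02 ± 0.27 (SE, 2.03-fold lower, limma adjusted p = 0.0275, and 0.063 with the replicate block). The means were 9.82 ± 0.59 and 10.56 ± 0.15 for Ms4a6b (CKO-labelled and control, SD, n = 4 each). For Ms4a6c they were 10.21 ± 0.34 and 10.82 ± 0.11, and for Ms4a6d 6.28 ± 0.77 and 7.31 ± 0.28. Ms4a6b, Ms4a6c and Ms4a6d are related copies, and whether their probe sets share signal was not tested.

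Ms4a7, a gene of macrophages, stood near the floor in monocytes. It read 3.94, 4.50, 4.06 and 4.62 in CKO-labelled monocytes, against 4.33, 4.54, 5.15 and 4.73 in control monocytes, and 2 CKO-labelled and 3 control arrays were above the floor. The groups overlapped, and the difference of -0.41 ± 0.18 (SE, limma adjusted p = 0.212) did not pass. It lay below 0 in every other fit run in which the gene was tested. Arrays of the groups did not overlap for 2 of the 6 members, Ms4a4c and Ms4a6c, and among all genes tested CKO-labelled monocytes lay below the controls without overlap for 3.92%.

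**Figure D2:**
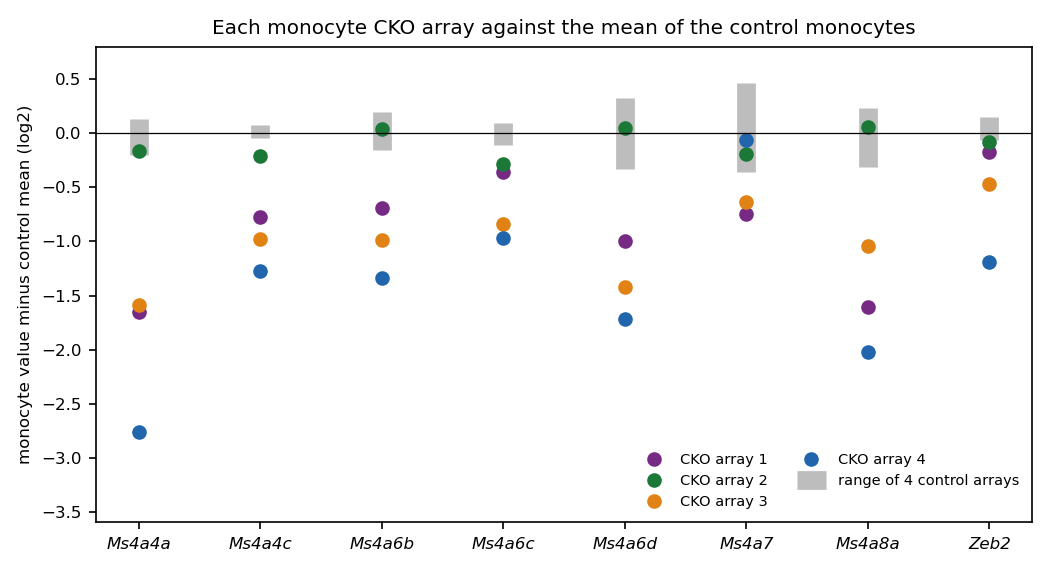
Difference (log2, y axis) of each of the 4 CKO-labelled monocyte arrays from the mean of the 4 control monocyte arrays, for the 6 members, Ms4a8a and Zeb2 (x axis); grey bars give the range of the controls. Array 2 lies at or near the control range for every gene shown, and array 4 is the lowest for all but Ms4a7.

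The 4 CKO-labelled monocyte arrays were not alike. Array 4 was the lowest for 5 of the 6 members and array 2 the highest for 5, Ms4a7 being the exception in both. Of all genes called lower in monocytes, array 4 was lowest for 68.1% and array 2 highest for 81.3%. For Ms4a4a the arrays 1 to 4 differed from the control mean by -1.65, -0.16, -1.59 and -2.76, and for Ms4a6d by -1.0, 0.05, -1.42 and -1.72. The spread of Ms4a4a among CKO-labelled monocytes (SD 1.07) thus exceeded that among controls (SD 0.15), and the SD was larger in CKO-labelled arrays for 5 of 6 members and for 65.7% of all genes. Zeb2 followed a like order, at -0.17, -0.08, -0.47 and -1.19 from the control mean in arrays 1 to 4. The mean of 7 promyelocyte genes, Ms4a3 among them, was 10.39, 8.79, 10.75 and 11.01 in the same arrays, against 6.23 to 8.69 in control monocytes. The neutrophil list, by the sum of its 13 genes, reached 14.73 to 15.23 (log2) in CKO-labelled monocytes, lowest in array 2, and 12.42 to 14.13 in control monocytes. The part of these other cells' genes in the fall of the Ms4a genes was not tested.

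Leaving out single arrays changed which members passed. Without CKO-labelled monocyte array 2 the changes of the 5 called members were larger, at -2.0 for Ms4a4a, -1.38 for Ms4a6d, -1.01 for Ms4a4c and Ms4a6b and -0.73 for Ms4a6c, with limma adjusted p of 1.17e-05 to 0.00903, while the share of all genes called lower was 7.1% in that fit, against 2.44% with all arrays. Array 2 was the highest CKO-labelled array for these 5 members, so the larger fall without it follows from leaving it out and is no independent support. Only 1 of 6 members, Ms4a4a, was called without control monocyte array 2, control array 5, CKO-labelled array 3 or CKO-labelled array 4, fits in which 0.986% to 1.35% of all genes were called lower. Counts were 3 of 6 without control array 1, control array 4 or CKO-labelled array 1, where 1.37% to 1.6% of all genes were called lower. Within array set A none of the 6 passed by limma, while 2 had an unadjusted p under 0.05, against 9.93% of all genes, and 0.172% of all genes were called lower there. The changes there were -0.79 for Ms4a4a, -0.47 for Ms4a4c, -0.44 for Ms4a6b, -0.33 for Ms4a6c, -0.48 for Ms4a6d and -0.22 for Ms4a7. Within set B the same genes changed by -2.29, -1.14, -1.05, -0.90 and -1.57, all 5 called by limma (adjusted p 3.29e-04 to 0.0286, against 5.33% of all genes called lower there), and Ms4a7 was at -0.60 (0.0762). With the set as a block the same 5 genes were called, at limma adjusted p of 0.00592 to 0.0206, and 4.44% of all genes were called lower. The sets were drawn from the deviations of these same values, with CKO-labelled monocyte array 2 in set A and array 4 in set B. The smaller fall in set A than in set B, and the smaller p with the block, are therefore no independent support. All 6 changes were below 0 in every one of these fits.

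**Figure D3:**
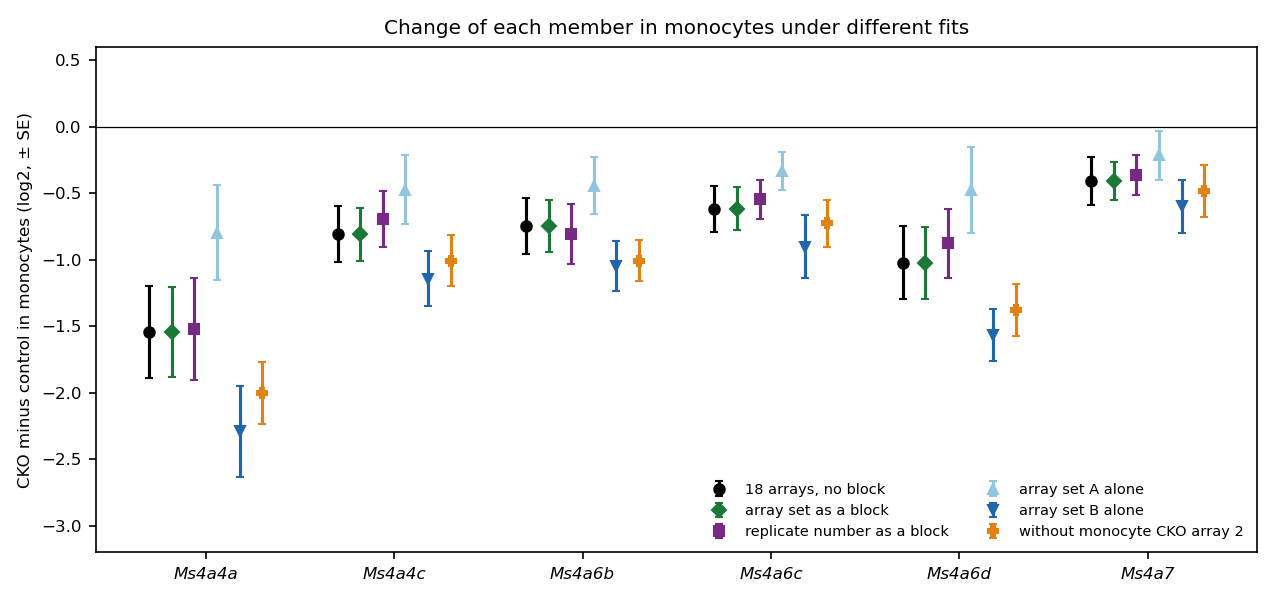
Change (CKO-labelled minus control, log2, y axis, ± SE) of each member in monocytes under 6 fits (colours and symbols; x axis: gene). The change is below 0 in each fit shown, nearest to 0 within array set A and farthest from 0 within set B. The sets were drawn from the deviations of these same values.

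In neutrophils all values of the members lay below the floor in both genotypes, so no change or lack of change can be read from them. The members entered the test through their monocyte values. Values across the 9 neutrophil arrays ran from 3.32 to 4.13 for Ms4a4a, 2.95 to 4.22 for Ms4a4c and 3.24 to 3.87 for Ms4a6b. They ran from 3.01 to 4.15 for Ms4a6c, 3.05 to 3.93 for Ms4a6d and 3.18 to 3.68 for Ms4a7. Differences of CKO-labelled from control neutrophils lay between -0.58 and 0.24, and the arrays overlapped for all 6. Among all genes CKO-labelled neutrophils lay below the controls without overlap for 1.59% and above them for 1.84%. By limma 0 of 6 members were called and 1 had an unadjusted p under 0.05, where 0.12% and 5.1% of all genes did, and nothing is read from these counts. That gene was Ms4a6c, at 3.20 ± 0.17 in CKO-labelled and 3.78 ± 0.34 in control neutrophils (SD, n = 4 each), all below the floor, with limma adjusted p = 0.58.

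The difference between the monocyte and the neutrophil change was fitted too, but its neutrophil values all lay below the floor, so it does not show whether the cell types differ in their change. By limma 0 of 6 members were called (2.68% of all genes were), and 4 had an unadjusted p under 0.05 (13.5% of all genes). The difference was -1.55 ± 0.49 (SE) for Ms4a4a (adjusted p = 0.111), -1.04 ± 0.30 for Ms4a4c (0.0733), -0.92 ± 0.30 for Ms4a6b (0.12) and -1.13 ± 0.39 for Ms4a6d (0.159), all by limma. For Ms4a6c it was -0.04 ± 0.25 (0.976), with neutrophil means of 3.20 (CKO-labelled) and 3.78 (control) below the floor, and for Ms4a7 -0.43 ± 0.26 (0.51). Without CKO-labelled monocyte array 2, 4 members passed (Ms4a4a, Ms4a4c, Ms4a6b and Ms4a6d, limma adjusted p 6.28e-04 to 0.0058), as they did within set B. The share of all genes called was then 6.75% and, within set B, 5.46%, against 2.68% with all arrays. CKO-labelled monocyte array 2 was the highest of its group for these members, so their calls without it are no independent support. With the array set as a block, a split drawn from these same values, Ms4a4c alone passed (0.0441), and 4.23% of all genes did.

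The single untreated control arrays were set beside the poly(I:C) controls as a description, since 1 array allows no test. Untreated monocytes read 8.62 for Ms4a4a, 9.75 for Ms4a4c, 10.50 for Ms4a6b, 10.67 for Ms4a6c, 7.24 for Ms4a6d and 5.0 for Ms4a7. These lay within the range of the poly(I:C) control monocytes for 4 of 6 members, against 62.1% of all genes. The exceptions, Ms4a4c and Ms4a6c, read just below that range. In neutrophils 3 of 6 untreated values lay within the control range, against 63.1% of all genes. Among the monocyte groups the mean of CKO-labelled arrays was the lowest for all 6 members, and the poly(I:C) controls were highest for all but Ms4a7, where the untreated array was.

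Outside the 6 members, 13 further Ms4a genes are on the table and 5 were tested. Ms4a8a, known from alternatively activated mouse macrophages, fell. It read 7.22, 8.89, 7.80 and 6.82 in CKO-labelled monocytes, against 8.52, 9.07, 8.84 and 8.90 in control monocytes, a change of -1.15 ± 0.31 (SE, limma adjusted p = 0.0265, and 0.112 with only the compared arrays). Array 2 lay among the controls here too, and Ms4a8a lies outside the block of members on the chromosome. Ms4a3, a gene of granulocyte and monocyte progenitors, went the other way. It read 9.83, 7.98, 10.45 and 10.74 in CKO-labelled monocytes, against 5.43, 5.12, 8.27 and 7.0 in control monocytes, a change of 3.29 ± 0.58 (SE, 9.80-fold, limma adjusted p = 0.00148). Array 2, the highest for most members, was the lowest of the 4 for Ms4a3, and control array 4 exceeded it. In set A the Ms4a3 change was 3.63 and in set B 2.96, both called.

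Ms4a4b, whose protein associates with the receptor GITR in T cells and whose start region is the one most like that of Ms4a4c, did not pass the test. It read 5.97, 5.79, 5.05 and 5.53 in CKO-labelled monocytes, against 5.65, 5.67, 5.32 and 5.07 in control monocytes, and the groups overlapped (0.16 ± 0.17 SE, limma adjusted p = 0.686). Ms4a10 was at -0.14 (0.599) and Ms4a15 at 0.03 (0.942). The nearest tested Ms4a genes on either side of the members, Ms4a8a and Ms4a3, were both called, at -1.15 and 3.29. Outside the Ms4a family, the 3 nearest tested genes on each side included 0 called, with a median change of 0.008. They were Ptgdr2, Ccdc86 and AW112010 before the members and Cblif, Mrpl16 and Stx3 after them. Of these Stx3, a syntaxin of membrane fusion, was at -0.59 ± 0.21 (limma adjusted p = 0.104), and the others lay between -0.02 and 0.20.

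**Figure D4:**
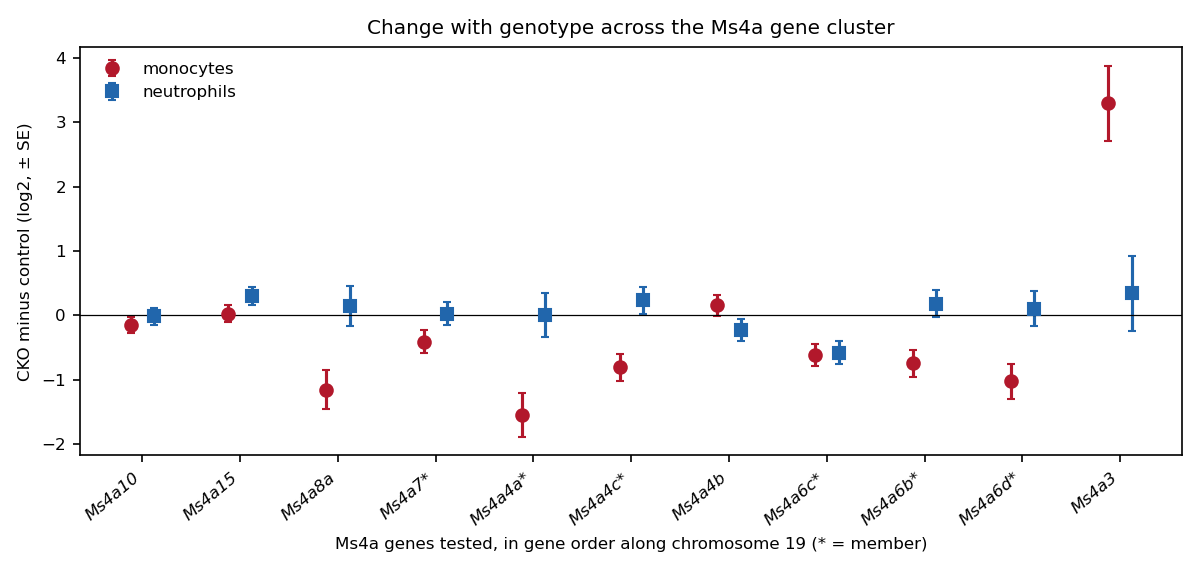
Change with genotype (CKO-labelled minus control, log2, y axis, ± SE) of the 11 Ms4a genes tested, in their gene order on chromosome 19 (x axis; * marks a member), in monocytes (red) and neutrophils (blue). In monocytes the members and Ms4a8a lie below 0 and Ms4a3 at 3.29, while Ms4a4b, between members, lies at 0.16; all neutrophil values of the members are below the floor.

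Genes for receptors, adaptors and tetraspanins listed as partners of MS4A proteins moved in both directions in monocytes. Of 8 tested, 3 rose, the tetraspanins Cd81 (2.54) and Cd9 (1.95) and the GITR gene Tnfrsf18 (1.02), and 1 fell, the Dectin-1 gene Clec7a (-0.84). The median was -0.21. Cd81 averaged 5.86 in control monocytes and 8.68 in control neutrophils, and Cd9 5.32 in control monocytes and 9.33 in control neutrophils. Trem2, the lipid receptor that human genetics ties to the MS4A locus, was at -0.22 (limma adjusted p = 0.392). Of 24 interferon-stimulated genes 2 fell, Ifi203 (-0.61, adjusted p = 0.0267) and Ifi209 (-0.72, 0.0415). Irf7 was at -0.72 (0.0663), 23 of the 24 lay below 0, and the median was -0.53. Among all genes tested in monocytes 2.44% fell, 5.11% rose and 57.4% of the changes lay below 0. In neutrophils 1 of the 24 interferon-stimulated genes rose, where 0.12% of all genes were called in either direction.

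Markers of the sorted cells and of cells that a sort could let through were counted in the same fit, in which 2.44% of all genes fell and 5.11% rose in monocytes. Of 9 Ly-6C(hi) monocyte genes 1 fell, the growth factor receptor Csf1r (-0.87, limma adjusted p = 0.0275), 8 lay below 0 and the median was -0.61. Of 9 Ly-6C(low) monocyte genes 3 fell, Pou2f2 (-0.70), Nr4a1 (-0.92) and the fractalkine receptor Cx3cr1 (-1.17). In that list 6 lay below 0, the rest did not, and the median was -0.17. Of 13 neutrophil genes 12 rose (median 2.65), with Ly6g, the antigen that defines neutrophils in sorting, at 9.09 in CKO-labelled and 3.90 in control monocytes. All 7 promyelocyte genes, Ms4a3 among them, rose (median 2.69). Of 12 macrophage genes 3 fell, Mrc1 (-1.35), Siglec1 (-0.64) and Apoe (-0.87), Vcam1 rose (2.43) and the median was -0.01. Of 5 conventional dendritic cell genes 2 fell, Cd209a (-1.49) and Flt3 (-0.88), and of 4 plasmacytoid dendritic cell genes Tcf4 fell (-0.88) and Ccr9 rose (1.08). None was called among 4 B cell, 3 T and NK cell, 2 mast cell and basophil and 1 erythroid gene. In neutrophils none of these marker genes was called.

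By profile over all 18 arrays the members had other genes as their nearest, with 1 exception. Likeness was measured as the root mean square difference of log2 values after centring each gene on its own mean, so a small value means a like profile. Values were not scaled, so the size of a gene's difference between monocytes and neutrophils enters the distance. Nearest to Ms4a4a were Arhgef37 (0.267), BC147527 (0.31) and Scpep1 (0.321). Nearest to Ms4a4c were the endolysosomal nuclease Pld4 (0.292), the transglutaminase subunit F13a1 (0.347) and Ly86 (0.362), a partner of the receptor RP105. Ms4a6b lay closest to F13a1 (0.275), fibronectin Fn1 (0.304) and the chemokine receptor Ccr2 (0.305). Ms4a6c lay closest to Fn1 (0.406), Ms4a6b (0.446) and Ccr2 (0.479), so that 1 member was among the nearest 3 only here. Ms4a6d lay closest to the plexin Plxnb2 (0.262), the phospholipase Plcb1 (0.268) and the scavenger receptor Lrp1 (0.274), and Ms4a7 to Atg10 (0.206), Fam174a and Reep5 (0.22 both). Among members Ms4a4c and Ms4a6b were closest (0.422), then Ms4a6b and Ms4a6c (0.446), and Ms4a6c and Ms4a7 were farthest apart (2.96). For that last pair, control monocytes minus control neutrophils was 7.05 for Ms4a6c and 1.26 for Ms4a7. The change in monocytes lay below 0 for every one of these nearest genes, from -1.21 (Arhgef37) to -0.09 (Reep5). Besides Ms4a6b, those of Arhgef37, Scpep1, Plxnb2, Plcb1, Lrp1 and Fam174a passed the test. The others did not, among them F13a1 (-0.77), Ccr2 (-0.78) and Fn1 (-0.61). A fall like the members' was thus also seen in these other genes, although the same monocyte arrays enter the distance. The 18 arrays behind these distances are those that chose the genes.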

How the data were processed

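RNA of sorted bone marrow monocytes and neutrophils was prepared with RNAqueous-Micro and the target with Ovation PicoSL, per the labels. The deposited values are log2 intensities per probe set, which the authors made by RMA, as the submitters' processing notes record; its software is not given in the sources used here. Of 30177 probe sets, 21789 had 1 gene symbol, 1621 several and 6767 none in the platform annotation, and only the first kind was used. Of the resulting 19938 genes, 99.59% matched a RefSeq gene. A gene with several probe sets (999, no member among them) was represented by the one with the highest mean.

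Genes above their array's 40th percentile on at least 4 of 18 arrays were tested (13387). Limma 3.58.1 (R 4.3.3) was fitted as a group-means model over 18 arrays and 6 groups, with a variance trend, 12 residual degrees of freedom and a threshold of 0.05 after Benjamini-Hochberg adjustment over all genes. The procedure was tested on simulated data with independent errors and, for each gene, the same SD in all groups. Correlated arrays and the larger SD of CKO-labelled monocytes were not simulated, so the p-values were not checked under those conditions. Bounds against neutrophils replaced each neutrophil value by its array's 40th percentile. Alternatives were quantile normalization, other filters, other variance priors, only the arrays compared, untreated arrays counted as controls, the replicate number or array set as a block, each set alone, means of probe sets and leaving out single arrays. One further alternative, without the CKO arrays numbered 2 of both cell types, was chosen after seeing the data. Named genes were the members, other Ms4a genes that passed, the gene neighbours, the 3 nearest profiles per member (without clone-like symbols) and up to 3 genes with the smallest p of each list. Clec7a, Siglec1, Trem2, Ms4a4b, Ms4a10 and Ms4a15 were added to complete small counts or because of their known role, after their values were seen. The members and lists were chosen with earlier results of these data known.

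Deviations from group means split the arrays by their first principal component (32.4% of that variance). Control and CKO arrays with the same number in the labels (1, 2 and 4) correlated at 0.183 to 0.428 in 6 of 6 pairs, so the replicate block was treated as a pairing for these numbers. Array pairs of different groups correlated at 0.02 to 0.428 within a set and at -0.344 to -0.036 across sets, so number and set are not told apart by this check. Sequences are from RefSeq (GRCm38.p6), aligned with Biopython 1.88.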

Additional observations from a re-analysis of the deposited data

Results flagged for a closer look

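Ms4a6d read 3.41 in CKO-labelled neutrophil array 2, apart from 3.62, 3.65 and 3.65 in the other CKO-labelled neutrophils. The gap was 0.876 of the range of the 4 arrays, above Dixon's 95% critical value of 0.829. Of 32 groups of 4 arrays screened, about 1 in 20 would be marked by chance, and all 4 values lie below the 40th percentile of their arrays.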

How the results depend on the processing

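The changes of all 6 members in monocytes lay below 0 under each alternative run in which they were tested. The count of members called in monocytes (5) moved to 1 when only the arrays compared were fitted (Ms4a4c), to 3 with the replicate block and to 0 in array set A alone. The shares of all genes called lower there were 0.769%, 1.98% and 0.172%, against 2.44% in the main fit. On leaving out single arrays the count ranged from 1 to 5 and the share from 0.986% to 7.1%. In neutrophils, where all member values lay below the floor, 0 were called under each alternative run, including the replicate block. The count called in the difference of changes (0, also with the replicate block) moved to 2 with untreated arrays counted as controls, to 1 with the array set as a block, to 4 in set B alone and to 4 without the CKO arrays numbered 2 of both cell types. In these 4 settings 4.12%, 4.23%, 5.46% and 6.76% of all genes were called, against 2.68% in the main fit and 3.43% with the replicate block. The count of members ranged from 0 to 4 on leaving out single arrays, with 4 without CKO-labelled monocyte array 2 (6.75% of all genes) and 1 without CKO-labelled neutrophil array 3 (1.89%). The count of other Ms4a genes called in monocytes (2) moved to 5 with no filter, to 1 with only the compared arrays fitted and to 1 in set A alone, and ranged from 1 to 2 on leaving out single arrays. Fewer samples enter the fits of compared arrays, of single sets and with an array left out; otherwise the cause was not tested. Over all genes, the number lower in monocytes (326) ranged from 23 in set A alone to 979 without the CKO arrays numbered 2, and the number higher (684) from 192 to 1062. Genes called in neutrophils (16) ranged from 3 to 24 and those in the difference (359) from 72 to 905, in the same 2 settings. Quantile normalization moved the median of all genes by -0.003 in monocytes and 0.007 in neutrophils.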

Other observations

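Several Ms4a genes known from other lineages sat at low signal and were not tested under the filter. Ms4a1, the CD20 gene of B cells, read 4.36, 3.02, 4.0 and 4.07 in CKO-labelled monocytes, against 2.93, 2.91, 2.99 and 2.64 in control monocytes. All 8 values were below the 40th percentile of their arrays, and CKO-labelled array 2 was again the nearest to the controls. Ms4a2, the IgE receptor beta chain gene, read 3.51, 3.13, 3.74 and 3.71 in CKO-labelled monocytes, against 2.77, 3.02, 3.02 and 3.13 in control monocytes, all below the 40th percentile. Ms4a4d, which lies among the members, averaged 3.96 in CKO-labelled and 4.46 in control monocytes. Without the filter limma called all 3, at 0.99 (adjusted p = 0.00382) for Ms4a1, 0.54 (0.0324) for Ms4a2 and -0.51 (0.0431) for Ms4a4d. In that fit 1.25% of all genes were called lower in monocytes. For Ms4a4d only 2 control arrays and 0 CKO-labelled arrays were above the 40th percentile. At such low signal no change is read from these calls.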
